A study of Mus musculus with 2 samples.

Results

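The 10 genes described here encode the main folding machinery of the endoplasmic reticulum (ER) and transcription factors of the unfolded protein response: Hspa5, Hsp90b1, Calr, Canx, Pdia3, Pdia4, Pdia6, Xbp1, Ddit3 and Atf4. They were chosen by name and function, and all 10 were found on the array, among 20284 named genes, by 12 of its 55681 probes other than controls. Gene expression was measured in mouse ESCs (embryonic stem cells, which can form all tissues of the embryo) on 2 Agilent arrays of 60-base probes. One sample on each array was WT ESCs, read in the Cy3 channel, and the other was ESCs whose genotype is given as HDAC6 overexpression, read in the Cy5 channel. Both cell populations were of strain B6C3F1 and at passage 26, and both grew on mitomycin C-treated embryonic fibroblasts (feeders) in medium with serum and the cytokine LIF. HDAC6 is a largely cytoplasmic deacetylase that acts on alpha-tubulin and on the cytosolic chaperone Hsp90. How HDAC6 was overexpressed, and whether the cells were 1 clone or several, is not given in the sources used here.

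The ER folds secreted and membrane proteins with the help of chaperones, lectins that hold glycoproteins, and enzymes that form disulfide bonds. When unfolded proteins build up, the sensors IRE1 (gene Ern1), PERK (Eif2ak3) and ATF6 start the unfolded protein response. IRE1 splices the Xbp1 mRNA, PERK slows translation while favouring that of Atf4, and ATF6 is cut to release a transcription factor. These branches raise chaperone genes together, and prolonged stress adds Ddit3, which encodes the factor CHOP. The array probes read total transcript and do not separate spliced from unspliced Xbp1, and Atf4 is controlled largely at translation.

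Many chaperone promoters carry the ER stress response element, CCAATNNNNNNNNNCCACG, whose first block of fixed letters binds NF-Y and whose last block binds ATF6 or XBP1. The element was searched on both strands, from 250 bases before to 50 bases after each gene start, in RefSeq promoters of GRCm38.p6. An exact match was present in 5 of the 10 genes, against 37 of 27025 genes in all (39 of 32851 promoters, 0.119%). Since the element is known from chaperone promoters, its presence in these genes is background and no finding of the search. The 5 genes' windows of 59 bases are shown because they share this element while their transcripts differed in direction, with the fixed letters in capitals. A match on the opposite strand reads CGTGG before ATTGG.
Hspa5, chr2:34772005-34772063, plus strand: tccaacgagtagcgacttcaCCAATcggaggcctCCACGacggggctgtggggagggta
Hsp90b1, chr10:86705618-86705676, minus strand: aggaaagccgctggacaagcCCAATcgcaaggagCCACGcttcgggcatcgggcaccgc
Hsp90b1, second match, chr10:86705513-86705571, minus strand: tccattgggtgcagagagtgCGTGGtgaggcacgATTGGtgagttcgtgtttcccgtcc
Calr, chr8:84847055-84847113, minus strand: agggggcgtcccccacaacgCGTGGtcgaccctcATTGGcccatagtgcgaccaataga
Canx, chr11:50325780-50325838, minus strand: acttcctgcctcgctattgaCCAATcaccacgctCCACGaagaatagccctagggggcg
Pdia6, chr12:17266471-17266529, plus strand: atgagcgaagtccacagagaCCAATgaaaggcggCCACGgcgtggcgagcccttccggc

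The matches began 65 bases before the start of Hspa5, 212 and 107 before that of Hsp90b1, 162 before Calr, 145 before Canx and 98 before Pdia6. With 1 mismatch allowed in the fixed letters, Pdia3, Pdia4 and Ddit3 also held the element, which makes 8 of the 10 genes. Of all genes, 466 of 27025 did so (494 of 32851 promoters, 1.5%). Xbp1 and Atf4 held neither form in this window. A match describes the letters and is no measure of factor binding.

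Ratios are given as log2 of the processed overexpression signal divided by the processed WT signal of the same array, where positive means higher in HDAC6-overexpressing cells. Errors are the SD over the 2 arrays (n = 2), and calls rest on limma's moderated test with Benjamini-Hochberg adjustment over 16069 genes at 0.05. The labels call the arrays biological replicates, but nothing says that separate cultures were used. The p-values therefore rest on the spread between these 2 arrays, taken mainly from all genes together, and that spread may be technical. Both arrays carried the dyes in the same orientation, so a dye effect of single probes cannot be told apart from the genotype. Of the probes, 68.8% to 69.6% were well above background in each channel, and every probe of the 10 genes was so in both channels on both arrays. Hdac6, the labelled gene, had 2 probes, of which only the brighter, which stands for the gene, is given here. This probe gave ratios of 0.16 and -0.04 (mean 0.06 ± 0.14, adjusted p = 0.639). It did not pass the test in the population labelled HDAC6 overexpression. With median centring in place of an intensity-dependent dye step, Hdac6 was called higher (mean 0.52 ± 0.20, adjusted p = 0.00105), beside a median of 0.53 over the brightest 10% of genes under that setting. Whether the probe can read the introduced construct is not known from the sources used here.

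Of the 10 genes, 6 were higher in HDAC6-overexpressing cells (Hspa5, Hsp90b1, Calr, Pdia3, Pdia4 and Ddit3), 2 were lower (Canx and Xbp1), and Pdia6 and Atf4 did not pass the test. Over all genes tested, 21.2% were called higher and 29.9% lower. The median log2 ratio was 0.33 over the 10 genes and -0.06 over all genes tested. Both overexpression signals lay above both WT signals in 7 genes and below them in 2, where 30.8% and 42.0% of all genes tested did so. Only the signals of Atf4 overlapped, and Atf4 was also the only one of the 10 whose ratios had opposite signs on the arrays. In bulk RNA, fewer cells of a type and less RNA per cell cannot be told apart.

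**Figure D1:**
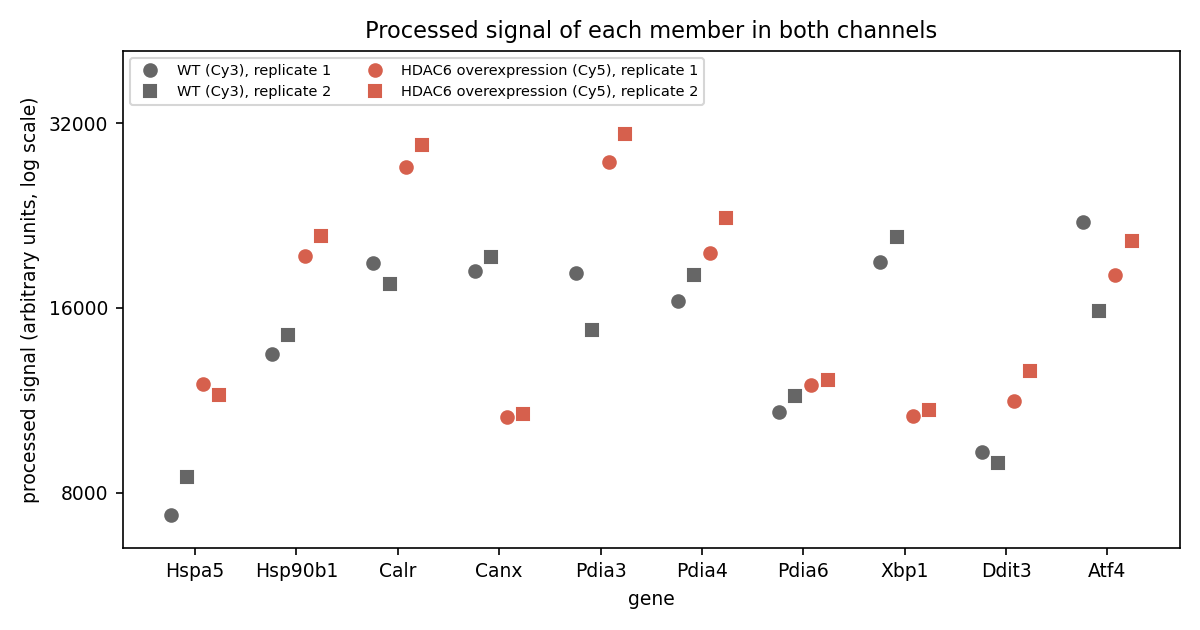
Processed signal (log axis, arbitrary units) of the 10 genes in the WT (grey) and HDAC6 overexpression (red) channels of both arrays. Circles are replicate 1 and squares replicate 2. Hspa5 rose from 7353 to 12001 on the array of replicate 1, Canx fell from 18341 to 10636, and the signals of Atf4 overlap.

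The general chaperones of the ER lumen rose. Hspa5 encodes BiP, the ER Hsp70 that binds unfolded chains and holds the stress sensors inactive. Its signal was 7353 in WT and 12001 in overexpressing cells on replicate 1, and 8465 and 11523 on replicate 2. Both overexpression signals were above both WT signals, and the mean log2 ratio was 0.58 ± 0.19, a 1.49-fold rise (95% interval of the log2 ratio 0.31 to 0.84, adjusted p = 0.00712). Hsp90b1 encodes GRP94, the ER Hsp90, which folds integrins and Toll-like receptors. It read 13462 and 19436 on replicate 1 and 14458 and 20944 on replicate 2. The ratios of Hsp90b1 were 0.53 on both arrays (mean 0.53 ± 0.0034, 1.45-fold, adjusted p = 0.00535). The log2 ratio of Hspa5 exceeded that of 89.4% of all genes tested and the log2 ratio of Hsp90b1 that of 88.4%.

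The lectin chaperones, which hold glycoproteins during folding, moved in opposite directions. Calr encodes calreticulin, the soluble lectin of the lumen. Its signals were 18911 in WT and 27197 in overexpressing cells on replicate 1, and 17506 and 29504 on replicate 2. The groups did not overlap, and the mean log2 ratio of Calr was 0.64 ± 0.16 (1.56-fold higher, 95% interval 0.39 to 0.89, adjusted p = 0.00443). Canx encodes calnexin, the membrane-bound relative that uses the same sugar signal. It read 18341 and 10636 on replicate 1 and 19367 and 10730 on replicate 2. Both overexpression signals of Canx were below both WT signals, with a mean log2 ratio of -0.82 ± 0.05, 1.76-fold lower (95% interval -1.04 to -0.59, adjusted p = 0.00135). The 2 intervals lie on opposite sides of 0, although Calr and Canx both carry an exact ER stress response element.

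Of the 3 protein disulfide isomerases, Pdia3 and Pdia4 rose and Pdia6 did not pass the test. Pdia3 encodes ERp57, which works with calnexin and calreticulin on glycoproteins. Its signals were 18258 in WT and 27664 in overexpressing cells on replicate 1 and 14702 and 30680 on replicate 2. All overexpression signals of Pdia3 were higher than all WT signals, but the size differed between the arrays, 1.52-fold on replicate 1 and 2.09-fold on replicate 2 (mean log2 ratio 0.83 ± 0.33, adjusted p = 0.00447). Pdia4, or ERp72, read 16399 and 19623 on replicate 1 and 18092 and 22393 on replicate 2. Its groups did not overlap, and the rise was small at 1.22-fold (mean log2 ratio 0.28 ± 0.03, adjusted p = 0.044). This call was lost with no filter on dim probes (adjusted p = 0.0718), and the ratio of Pdia4 was 0.81 with median centring. Pdia6, or P5, which damps IRE1 signalling, had 2 probes. The brighter one, which stands for the gene, read 10811 and 11985 on replicate 1 and 11500 and 12214 on replicate 2. Its mean log2 ratio was 0.12 ± 0.04 with a 95% interval of -0.11 to 0.34 (adjusted p = 0.315). The dimmer probe of Pdia6 gave 0.38 and 0.39 (mean 0.39 ± 0.0064) and passed when every probe was fitted on its own (adjusted p = 0.0166), where 49.9% of 21113 probes were called in either direction. The probes of Pdia6 therefore agree in sign and differ in size and call.

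The 3 transcription factors gave a rise, a fall and no call. Ddit3, the CHOP gene, read 9327 in WT and 11281 in overexpressing cells on replicate 1 and 8951 and 12644 on replicate 2. Both overexpression signals of Ddit3 were higher than both WT signals, with a mean log2 ratio of 0.39 ± 0.16, 1.31-fold (adjusted p = 0.0239). Xbp1, the factor downstream of IRE1 that drives ER expansion, read 18997 and 10681 on replicate 1 and 20876 and 10891 on replicate 2. Both overexpression signals of Xbp1 were below both WT signals, with a mean log2 ratio of -0.88 ± 0.08, 1.85-fold lower (95% interval -1.11 to -0.66, adjusted p = 0.00116). Atf4, the factor translated under PERK signalling, had 2 probes. Its brighter probe read 22081 and 18127 on replicate 1 and 15823 and 20528 on replicate 2. It was lower in overexpressing cells on the first array and higher on the second (log2 ratios -0.28 and 0.38, mean 0.05 ± 0.47, 95% interval -0.37 to 0.46, adjusted p = 0.835). The other Atf4 probe turned the opposite way, with ratios of 0.13 and -0.07 (mean 0.03 ± 0.14, adjusted p = 0.805).

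**Figure D2:**
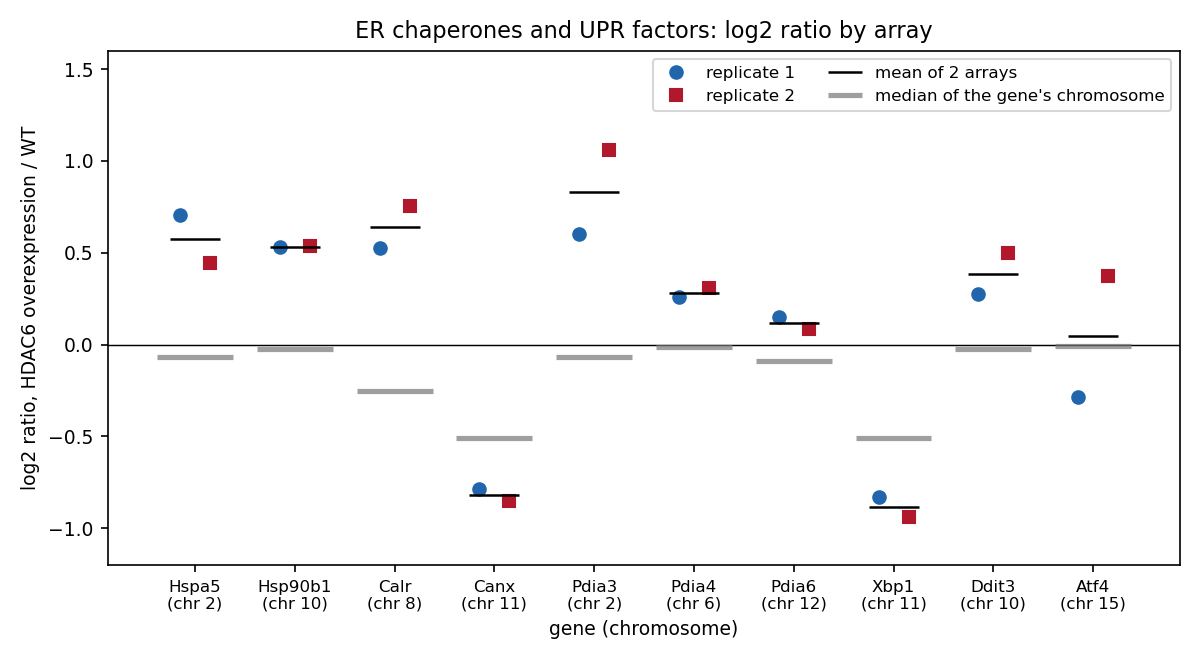
Log2 ratio of HDAC6 overexpression over WT for each gene on replicate 1 (circles) and replicate 2 (squares), with the mean of both arrays (black bar) and the median of the gene's chromosome (grey bar). Canx at -0.82 and Xbp1 at -0.88 lie below the chromosome 11 median of -0.51, and Calr at 0.64 lies above a chromosome 8 median of -0.25.

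Both genes that fell lie on chromosome 11, where most genes were lower in HDAC6-overexpressing cells. Over 1295 chromosome 11 genes above background in both channels, the median log2 ratio was -0.52 on replicate 1 and -0.50 on replicate 2, the lowest of all chromosomes. By limma, 66.9% of 1340 chromosome 11 genes tested were called lower, against 26.5% of the genes of other chromosomes, so 2 of 2 lower calls for Canx and Xbp1 stand beside a high background. On the other chromosomes 22.3% of genes were called higher and 26.5% lower, and of the 8 genes located there 6 were higher and 0 lower (2 not passed, with 0 lower also at an unadjusted p under 0.05), with a median of 0.46. The chromosome medians of these 8 genes ran from -0.25 on chromosome 8 (Calr) to -0.01 on chromosome 15 (Atf4).

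Set against their chromosome, Canx was at -0.31 and Xbp1 at -0.38 relative to the chromosome 11 median. A lower value was held by 24.6% of measured chromosome 11 genes for Canx and 19.9% for Xbp1. These were the only members below their chromosome's median, a position that 49.8% of all genes hold. The same limma fit on ratios minus each array's chromosome median called Canx (adjusted p = 0.0369) and Xbp1 (adjusted p = 0.0222) lower and Hspa5, Hsp90b1, Calr, Pdia3, Pdia4 and Ddit3 higher, where 23.0% and 23.8% of genes were called. When the arrays were median-centred with no intensity-dependent step, the remaining fall lost its call, at -0.14 for Canx (adjusted p = 0.276) and -0.16 for Xbp1 (adjusted p = 0.203). That alternative was chosen after seeing the data. Median centring alone put the median of the brightest 10% of genes at 0.53. Canx and Xbp1 are bright, with 87.3% and 88.1% of tested genes dimmer. On chromosome 8, where 46.9% of genes were called lower, Calr rose, and its distance from the chromosome median was 0.89, close to that of Pdia3 on chromosome 2 (0.90).

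The neighbours of Xbp1 and Canx were measured too. Xbp1 lies between Znrf3, which encodes a ubiquitin ligase for Wnt receptors (-0.83), and Ccdc117 (-1.51 ± 0.22, adjusted p = 0.000453). All 6 of its nearest measured genes were below 0, from Ccdc117 to Kremen1 (-0.08, adjusted p = 0.487), with Emid1 at -0.92, Mrps24 at -0.83 and Urgcp at -0.57, and their median was -0.83. Around Canx, 5 of 6 were below 0 with a median of -0.47. They included Hnrnph1, a splicing regulator (-0.83 ± 0.25), Maml1, a Notch coactivator (-0.73), Mgat4b (-0.62), Rufy1 (-0.32) and Ltc4s (-0.10, adjusted p = 0.378). Adamts2, a procollagen protease, stood out among them at 1.04 ± 0.09 (adjusted p = 0.000773). The median of the 6 nearest genes ran from -0.27 (Pdia4) to 0.32 (Hsp90b1) for the other 8 genes. For Calr, on chromosome 8, it was 0.11, with 5 neighbours above 0 and 1 below.

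**Figure D3:**
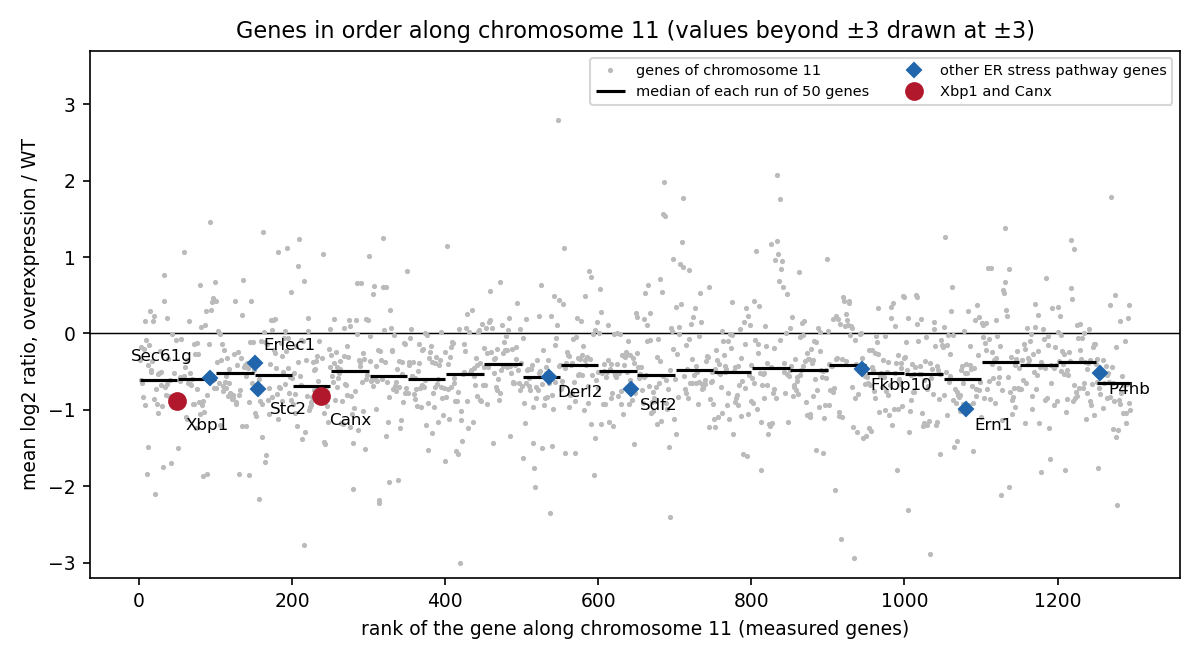
Mean log2 ratio of HDAC6 overexpression over WT for measured genes in order along chromosome 11 (x axis, rank of the gene), with black bars for the median of each run of 50 genes. All 26 runs lie below 0, between -0.69 and -0.38, and Xbp1 and Canx (red) lie below the bars of their own runs at -0.61 and -0.69.

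Other genes of ER folding and of the unfolded protein response came from 9 lists. Of 134 genes tested, 31 were higher, 30 were lower and 73 did not pass, with a median of 0.02. Shares of 23.1% higher and 22.4% lower stand beside 21.2% and 29.9% of all genes. On chromosome 11, 8 of 8 were lower (median -0.57). On chromosome 8, 7 of 9 were lower and 0 higher by limma (1 at an unadjusted p under 0.05), beside 46.9% of its genes called lower. On chromosome 1, the chromosome with the highest median (0.24), 6 of 7 were higher, beside 44.6% of its genes called higher. On the remaining chromosomes, 25 of 110 were higher and 15 lower.

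Among the sensors and the proteases that activate ATF6, 2 of 6 were higher and 2 lower. Ern1, the IRE1 gene upstream of Xbp1 splicing, lies on chromosome 11 and read -0.99 ± 0.03 (adjusted p = 0.000792). Atf6 lies on chromosome 1 and rose by 0.75 ± 0.06 (adjusted p = 0.00184), and Mbtps1, the first protease to cut ATF6, lies on chromosome 8 and read -0.42 ± 0.25 (adjusted p = 0.0284). The next list held 6 genes: other eIF2 alpha kinases, eIF2 alpha itself (Eif2s1) and phosphatase subunits. By limma 2 were higher and none was lower (0 also at an unadjusted p under 0.05). The higher ones were Ppp1r15a (GADD34, 0.51 ± 0.04) and Ppp1r15b (0.49 ± 0.14), which direct dephosphorylation of eIF2 alpha. Ppp1r15b lies on chromosome 1 and was 0.24 above its chromosome's median, while Ppp1r15a was 0.55 above its own.

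Of 16 co-chaperones and small ER stress proteins, 5 were higher and 2 lower. Manf, a secreted stress protein that binds BiP, was at 0.71 ± 0.16 (adjusted p = 0.00305). Sdf2 (-0.73 ± 0.03, chromosome 11) and Sil1, a nucleotide exchange factor of BiP (-0.49 ± 0.09), were lower. In the calnexin and calreticulin cycle 5 of 11 were higher and 2 lower. Mlec, malectin, which binds glucosylated glycans, was at 0.71 ± 0.17. The calnexin relative Clgn (-0.99 ± 0.13) and the calreticulin relative Calr3 (-0.65 ± 0.06), both on chromosome 8 and both best known from testis, were lower, so Calr and Calr3 moved in opposite directions on the same chromosome.

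Other disulfide isomerases and oxidases gave 2 higher, 3 lower and 11 not passed. Qsox1, a sulfhydryl oxidase, was the highest at 1.38 ± 0.14 (chromosome 1, adjusted p = 0.000428), with Txndc12 at 0.74 ± 0.41 and Tmx4 at -0.80 ± 0.06. Of 8 ER prolyl isomerases, 4 were higher, with Fkbp7 at 0.70 ± 0.22, Ppic at 0.57 ± 0.09 and Fkbp14 at 0.56 ± 0.27, and 1 was lower. In ER-associated degradation, which removes misfolded proteins, 4 of 20 were higher and 4 lower. Derl2, on chromosome 11, read -0.56 ± 0.09, which is -0.06 relative to its chromosome's median. Os9 and Sel1l, which recognise and pass on glycoproteins, read 0.45 ± 0.14 and 0.45 ± 0.21.

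The translocon, signal peptidase and oligosaccharyltransferase genes gave 3 higher and 7 lower of 25. The signal peptidase subunits Spcs3 (-0.81 ± 0.11) and Sec11a (-0.70 ± 0.12) were lower and Srprb, of the signal recognition particle receptor, was higher (0.66 ± 0.22). Among ATF4 and CHOP targets 4 of 26 were higher and 9 lower, with a median of -0.17. Slc7a11, the cystine carrier, was at -1.30 ± 0.19 (adjusted p = 0.000597), Ddit4 at -0.88 ± 0.32 and Cth, which makes cysteine from cystathionine, at 1.04 ± 0.04. The shares of these targets called, 15.4% higher and 34.6% lower, stand beside 21.2% and 29.9% of all genes tested. Ddit3 itself was raised and Atf4 had no call.

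**Figure D4:**
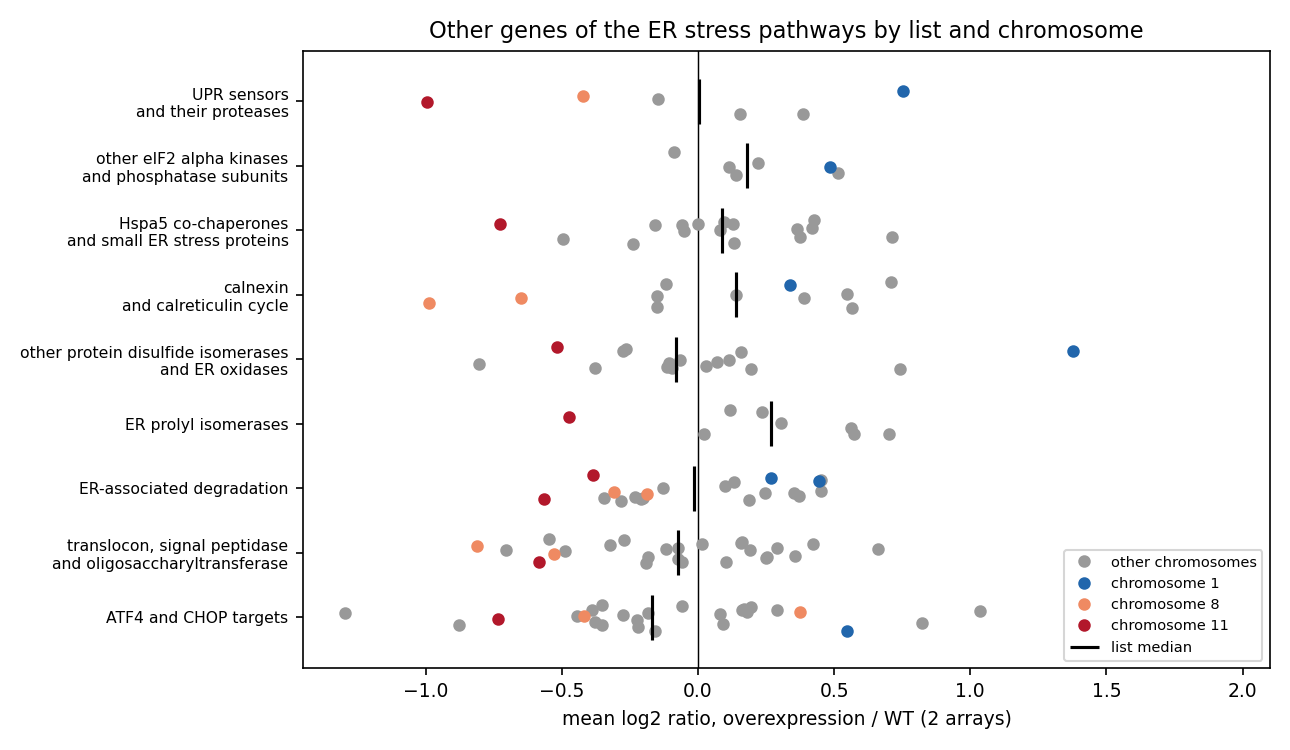
Mean log2 ratio of HDAC6 overexpression over WT (2 arrays) for each tested gene of the 9 pathway lists, with the list median as a black bar and colours for chromosomes 1, 8 and 11. The 8 chromosome 11 genes all lie below 0, and list medians lie between -0.17 and 0.27.

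Markers of other cell types also differed between the channels. Of 22 primitive endoderm markers, the extraembryonic lineage that secretes basement membrane, 20 were higher and 2 lower (median 2.93), with Cubn at 5.52 ± 0.06 and Gata4 at 4.96 ± 0.17. Ttr was not well above background in WT and is given as a bound, at least 16.8-fold higher (adjusted p = 5e-05), from channel levels after loess and Aquantile normalization, with the WT level no lower than the dimmest probe well above background. Their summed signal was 54212 and 61984 in WT and 246500 and 258420 in overexpressing cells, and 20 of the 22, all but Ttr and Apoa1, were well above background in WT on both arrays. Ttr and Apoa1 passed the filter only through the overexpression channel. Of 20 fibroblast markers, which feeder cells express, 18 were higher and 0 lower by limma (0 also at an unadjusted p under 0.05; median 1.096), with Col1a2 at 1.71 ± 0.46, S100a4 at 1.68 ± 0.25 and Lum at 1.52 ± 0.22. Their summed signal was 154630 and 140500 in WT and 282280 and 367070 in overexpressing cells. All 20 fibroblast markers were well above background in both channels on both arrays. Of 16 ESC markers, all above background in both channels, 4 were higher and 7 lower (median -0.02), with Tdgf1 at -1.11 ± 0.04, Fbxo15 at -0.74 ± 0.07 and Esrrb at 0.73 ± 0.14, and their summed signal was 293690 and 315840 in WT and 272490 and 296190 in overexpressing cells. The part of other cell types in the chaperone values was not tested.

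The 10 genes are bright, and their size depended on how the channels were scaled. The share of tested genes with a lower mean signal was 75.9% for Hspa5 and 96.7% for Calr, and 5 of the 10 were in the brightest 10%. With raw median signals, normexp background correction and loess, the calls were as above, with Hspa5 at 0.56, Hsp90b1 at 0.64, Calr at 0.73, Pdia3 at 0.84, Pdia4 at 0.30, Ddit3 at 0.30, Canx at -0.88 and Xbp1 at -0.92. The median of the brightest 10% of genes was -0.07 with the processed ratios, -0.01 with loess and 0.53 with median centring in place of loess. Calr then stood at 1.33 and Pdia3 at 1.44, Pdia6 (0.32, adjusted p = 0.0107) and Atf4 (0.56, adjusted p = 0.0018) were also called higher, and Canx and Xbp1 stayed lower at -0.50 and -0.52. Hspa5 (0.74), Hsp90b1 (0.98), Calr, Pdia3 and Pdia4 (0.81) lay above the 0.53 of bright genes under this setting, Ddit3 (0.53) and Atf4 lay close to it, and Pdia6, Canx and Xbp1 lay below it.

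**Figure D5:**
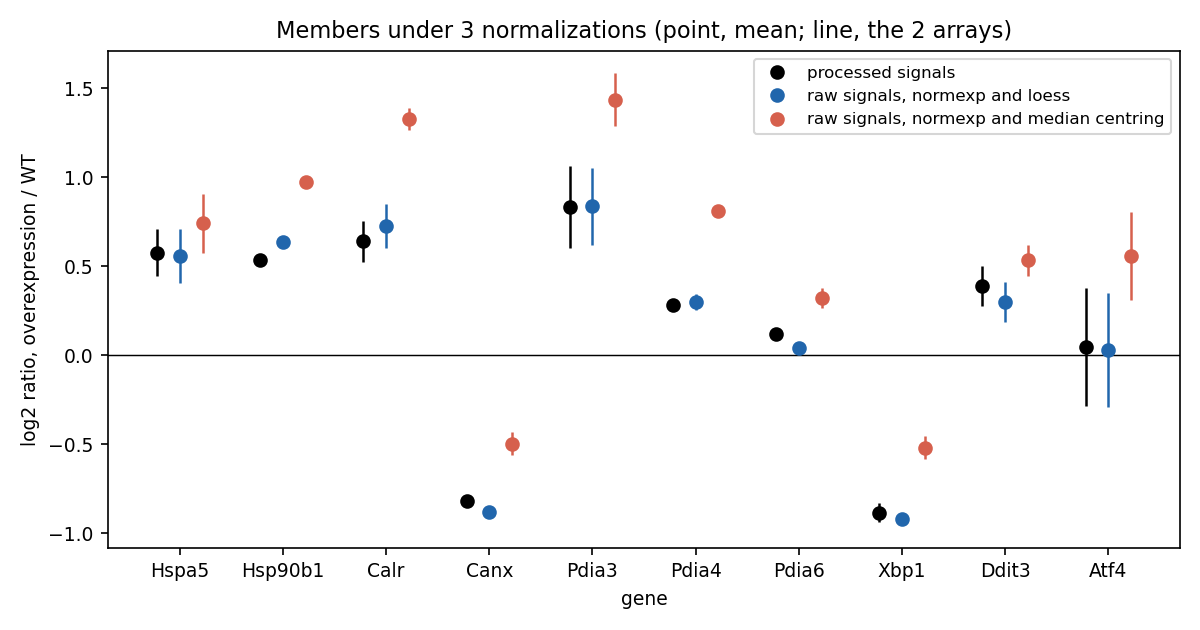
Mean log2 ratio of HDAC6 overexpression over WT (2 arrays) for the 10 genes under the processed ratios, normexp with loess, and normexp with median centring. Canx and Xbp1 lie below 0 in all 3, and median centring places every gene higher than the processed ratios do.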

How the data were processed

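The scanner files hold intensity values per spot, and per the file headers the authors used Agilent Feature Extraction 11.5.1.1, whose processed signals have background subtracted and dyes normalized (linear and lowess). The deposited series table holds log2 ratios of WT over overexpression, as its comparison with the scanner ratios showed (slope -1), and was used with the sign turned. It gave the same member values as the scanner ratios, so it held no further centring. Its column medians were -0.0074 and 0.062.

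Log2 ratios of processed Cy5 over Cy3 were computed, leaving out 3671 control spots and 269 and 313 outlier spots per array, and spots of a probe were averaged. No spot was saturated. Probes were named through unversioned accessions in a RefSeq table of GRCm38.p6 (26762 with 1 symbol, 0 with several, 28919 with none). The array's grid follows another assembly, so the table served only for names, chromosomes, gene order and promoters. The brightest probe stood for a gene, tested when both arrays showed it well above background in the same channel (16069 genes). Ratios were tested against 0 with limma 3.58.1 in R 4.3.3 (lmFit, eBayes, two-sided, Benjamini-Hochberg). With 2 arrays there was 1 residual degree of freedom beside 4.6 prior ones, and a typical standard error of 0.094. The number of arrays limits the precision. Simulated ratios for this comparison (16069 genes) had known log2 changes: the fit recovered 12.4% of changes of 0.5, 96.8% of changes of 1 and 100% of changes of 2 or 4. A far smaller share of genes was changed in the simulation than was called in the measured ratios (21.2% higher and 29.9% lower). The adjustment over all genes is stricter when few genes change. Whether the recovered shares hold for the measured ratios was not tested. Among the 10 genes, Hsp90b1 (0.53) and Hspa5 (0.58) lay near the smallest simulated size and passed. Ddit3 (0.39) and Pdia4 (0.28) lay below that size and also passed.

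Named are all 10 genes, up to 3 called genes of each pathway or marker list with the largest absolute ratio and one sign on both arrays, 3 measured neighbours on each side of Canx and Xbp1, and Hdac6. The 10 genes and the lists were chosen with earlier results of these data known. Alternatives covered normalization, centring, probe choice, filters, variance model, threshold and single arrays.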

Additional observations from a re-analysis of the deposited data

How the results depend on the processing

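Of 112 tested values of the 10 genes under the alternatives, 100 kept direction and side of the threshold, 9 kept direction but lost the call, 3 gained a call and 0 changed sign. The series table, the other filters, kept outlier spots, the intensity trend and the 1.5-fold test left each mean ratio unchanged, so its sign could not turn there. Ratios with the chromosome median subtracted after loess or after median centring are not among the 112. Of 20 values from a single array, which have no test, 19 had the sign of the mean and 1 did not, Atf4 on replicate 1. The strictest setting was limma's test against a 1.5-fold change, which called 0 of the 10 genes higher, 0 lower (at an unadjusted p under 0.05, 0 higher and 2 lower, Canx and Xbp1), and 667 genes higher and 942 lower over all genes. With no filter on dim probes Pdia4 lost its call (adjusted p = 0.0718). With the chromosome median subtracted after median centring, an alternative chosen after seeing the data, 0 of the 10 genes were lower, and after loess Canx (adjusted p = 0.00603) and Xbp1 (adjusted p = 0.00389) stayed called. Median centring called 4877 genes higher and 4811 lower, against 3413 and 4807 with processed ratios and 3559 and 5540 with loess. Centring on the median of all genes gave 4030 higher and 4074 lower. On a single array there is no test, and 2 to 3 of the 10 genes were below their chromosome's median (Atf4 joined on replicate 1). The ratio within each array already pairs an overexpression sample with its WT sample, so the test is paired by array.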

Other observations

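Besides the 5 genes described, 17 other tested genes carried an exact ER stress response element in the same promoter window, and they are named here after their values were seen. Of these, 3 were higher, 5 were lower and 9 did not pass, with a median log2 ratio of 0.04. Over all genes tested, 21.2% were called higher and 29.9% lower. One of the higher genes, Acnat2, passed the filter only through the overexpression channel. Among those with ER roles or relatives, Calr4, of the calreticulin family, was lower at -1.40 ± 0.35. Syvn1, a ubiquitin ligase of ER-associated degradation, at 0.13, Creld2 at 0.13, Derl3 at 0.10 and Dnajc3, a BiP co-chaperone, at 0.10 did not pass. Ero1b, an oxidase that recharges disulfide isomerases, read -0.28 and did not pass either (limma adjusted p = 0.051). Acnat2, not well above background in WT, was at least 1.99-fold higher, Ptgdr2 at 0.68 ± 0.05 and Zfp57, a guardian of imprinted methylation, at 0.54 ± 0.03. Xlr3a (-1.37) and Xlr3b (-0.53) belong to a family of near-identical copies, so their separate values are uncertain.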
